A study of Homo sapiens with 18 samples.

Results

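MICA, MICB, ULBP1, ULBP2 and ULBP3 encode 5 ligands of NKG2D, an activating receptor of natural killer (NK) cells and cytotoxic T cells. They were chosen by gene symbol, and all 5 were found among the 55765 gene symbols of both count tables and passed the filter on low counts in both. RNA was sequenced from OVCAR3, an established human cell line of high-grade serous ovarian carcinoma, kept in RPMI medium with 2% fetal bovine serum. There were 18 libraries in 2 series of 9. The first series held 3 libraries of cells treated with non-specific human IgA, 3 treated with non-specific human IgG and 3 left untreated. The second held 3 treated with IgA against BDNF, a secreted neurotrophin, 3 treated with IgA against TSPAN7, a tetraspanin of the cell surface, and 3 left untreated. Antibodies were given at 0.5 µg/mL for 24 h according to the labels, although other descriptions of both series give a shorter time. All 6 groups share the same line, medium and library kit, and a single line limits them as a model of ovarian carcinoma. The study describes the replicates of the first series as experiments, and the labels do not say whether the libraries of a group came from separate cultures in either series. P-values measure the spread between these samples, which may be technical where cultures were shared.

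NKG2D ligands are relatives of the MHC class I heavy chain that do not present peptides. Healthy epithelium carries little of them, and infected, damaged or transformed cells carry more, which makes these cells visible to NK cells. MICA and MICB span the membrane with their own domain, whereas ULBP1 and ULBP3 are held by a glycosylphosphatidylinositol anchor and ULBP2 largely so. The ligands can be released from the surface by metalloproteases, and the released form can blunt NKG2D on lymphocytes. IgA reaches the inside of epithelial cells through the polymeric immunoglobulin receptor, which carries it from the basal to the apical side. The comparisons below describe transcript levels of the ligands only. Surface protein was not analysed here.

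All 5 genes lie on chromosome 6 in 2 clusters (GRCh37, GENCODE v44lift37). MICA spans chr6:31367561-31383092 and MICB chr6:31462658-31478901, both on the plus strand within the major histocompatibility complex and 79566 bases apart. ULBP2 spans chr6:150263150-150270371 and ULBP1 chr6:150285079-150294851 on the plus strand, 14708 bases apart. ULBP3 spans chr6:150382189-150390257 on the minus strand. Counts were of uniquely aligned reads, so near-identical stretches can lose reads. Of the 75-base windows in annotated transcripts, 20.8% of ULBP2 (262 of 1261) also occurred in another gene, RAET1L or RAET1G, against 3.09% of ULBP1, 6.19% of ULBP3 and none of MICA (4129 windows) or MICB (2793 windows). The strand setting of the counting was not given in the sources used here. MICB shares 55 exonic bases with MICB-DT on the opposite strand. MICA shares 62 with a long noncoding RNA on its own strand and 94 with a Y RNA gene on the opposite strand. Of these overlapping genes, only the Y RNA has its symbol among those counted.

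The 250 bases before the RefSeq start were available for 5 of 5 genes, in a RefSeq table of 35116 promoters. Those of the 4 genes printed below were placed on GRCh37 by exact match. MICA and MICB had 214 of 250 letters in common in the same order (85.6%), against 58.4% to 65.2% for the other pairs of ligands. Gaps were allowed and the share in unrelated promoters was not computed, so the lower shares do not show relatedness. Of the motifs searched on both strands, GAANNTTC, which pairs 2 of the units bound by heat shock factors, was found in MICA and MICB and in 5.78% of all promoters. TGACG, part of the cAMP response element, occurred 3 times each in ULBP1 and ULBP2 and in 21.2% of all promoters. The 30 bases around these matches are shown to place these motifs in the 4 promoters that hold them, with the matches in capitals on either strand.
MICA, chr6:31371226-31371255, plus strand: ccagcccactgGAATTTTCtcttccaagcg
MICB, chr6:31465772-31465801, plus strand: ccaggccgctaGAATTTTCtcttctgaacg
ULBP1, chr6:150284988-150285017, plus strand: tgCGTCAgccaggccgctgtcagaTGACGa
ULBP2, chr6:150263063-150263092, plus strand: cgcgTGACGctatgacccgctTGACGctat
The MICA window lies 146 to 117 bases before the RefSeq start and within a 5′ untranslated exon of some GENCODE transcripts of MICA, and the MICB window lies 150 to 121 bases before its start, inside the gene span but in no exon. The ULBP1 and ULBP2 windows each lie upstream of their own gene, in no annotated gene. The third TGACG of each falls outside its window.

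The other motifs ranged from absent to present in all 5 ligand promoters. The GC box GGGCGG was found in all 5 ligand promoters, 6 times in ULBP3 and once or more in the rest, and in 42.6% of all promoters. CCAAT was found in MICA, MICB and ULBP2 and in 32.0% of all promoters. The E2F motif TTTCCCGC was found in ULBP2 alone (1.39% of all promoters), and the NF-kB motif in ULBP1 and ULBP3 (9.96%). None of the 5 held the heat shock element of 3 units (0.441% of all promoters), the interferon-stimulated response element (3.02%), the full cAMP response element (1.65%), the C/EBP-ATF element (3.13%), the AP-1 site TGANTCA (6.57%) or TATAAA (10.7%). GAANNTTC is part of the heat shock element of 3 units, and TGACG is part of the full cAMP response element. A match is a description of the letters and not of a bound site.

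The first series held 27920733 to 42371474 counts a library, and the second 39254350 to 47381836. IgA replicate 3 stood apart before any test. The mitochondrial genome supplied 19.1% of its counts, against 5.75% to 8.32% in the others of its series and 8.60% to 10.2% in the later one, and its TMM scaling factor was the lowest at 0.80. The ligand results that rest on the IgA group are therefore also given without it. The common dispersion between replicates was 0.0307 for the first series, well above the 0.00303 of the second. The 8 epithelial and ovarian markers (PAX8, WT1, MUC16, EPCAM, KRT7, KRT8, KRT18 and CDH1) summed to 4261 to 6335 CPM, which are counts scaled to the library total, in every library. KLRK1, which encodes NKG2D itself, had 0 counts in all 18 libraries, which allows at most 0.0633 to 0.107 CPM for counting error alone. The 8 NK and T cell markers summed to 17.4 to 25.3 CPM, nearly all of it NCAM1 (608 to 1001 counts), with NKG7 also at 0 and CD3E at 0 to 2 counts. The 3 macrophage markers summed to 0.337 to 1.01 CPM.

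Transcripts of MICA, MICB and ULBP2 were about 2-fold higher in cells given non-specific IgA, relative both to IgG and to untreated cells, and ULBP1 and ULBP3 did not pass the test. Against IgG, 3 of the 5 ligands were called higher and none lower, where 12.6% of all 18012 genes tested were called higher and 11.6% lower. A call means an adjusted p under 0.05 in edgeR's quasi-likelihood test, two-sided and adjusted by Benjamini-Hochberg over all genes tested. Against untreated cells the same 3 ligands were called, beside 12.9% of genes higher and 12.1% lower. With IgG against untreated cells no ligand was called, and neither was any of the 18012 genes. Of these, 89 (0.494%) had an unadjusted p under 0.05, none of them a ligand, and DESeq2 called 0 genes as well. A share this far under the 0.05 threshold marks the test as conservative here, so the absence of calls does not show that nothing changed. The log2 fold changes of IgG against untreated cells were 0.08 for MICA (95% interval -0.36 to 0.53), 0.06 for MICB (-0.37 to 0.49), 0.01 for ULBP1 (-0.90 to 0.92), -0.15 for ULBP2 (-0.62 to 0.33) and 0.24 for ULBP3 (-0.26 to 0.74). In bulk RNA, fewer cells carrying a transcript and less of it per cell cannot be told apart. The 3 comparisons share their groups, so the IgA libraries stand behind both sets of calls.

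Among the called ligands MICA had the most even values within the IgA group. Its normalised counts (counts brought to a common effective library size within the series) were 656, 584 and 717 in IgA replicates 1 to 3 (585, 584 and 454 raw counts). They were 381, 385 and 221 in the IgG libraries and 319.8, 353 and 261 in the untreated ones. Every IgA library lay above every IgG and untreated library, as was true of 19.7% and 19.8% of all genes, and the IgG and untreated values overlapped. Relative to IgG its log2 fold change was 0.98 (SE 0.21, 95% interval 0.54 to 1.43, edgeR adjusted p 0.00463), a fold of 1.98. Against untreated cells the log2 fold change of MICA was 1.07 (SE 0.21, 0.62 to 1.51, edgeR adjusted p 0.00274), a fold of 2.09. Without IgA replicate 3 these became 0.91 and 0.99, both still called.

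MICB, the close relative of MICA, had the highest mean normalised counts of the 5 in each group of the first series. They were 1197, 835 and 735 in IgA replicates 1 to 3, against 562, 463 and 371 with IgG and 463, 494 and 386 untreated. IgA replicate 1 was the highest, and the lowest IgA library still exceeded the highest IgG one. The log2 fold change of MICB was 0.99 against IgG (SE 0.20, 0.56 to 1.41, edgeR adjusted p 0.00365) and 1.04 against untreated cells (SE 0.20, 0.62 to 1.47, edgeR adjusted p 0.00243). Without IgA replicate 3 they were 1.12 and 1.18. Leaving out IgA replicate 1 instead gave 0.75 and 0.81, and the call held in both comparisons.

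ULBP2, a ligand tethered to the outer leaflet, had 644, 487 and 318 normalised counts in the IgA libraries. The IgG values were 256, 249 and 237, and the untreated values 296, 290.1 and 235. The IgA libraries spread over a wide range, and the lowest, replicate 3, lay just above the highest untreated library. The log2 fold change of ULBP2 was 0.97 against IgG (SE 0.22, 0.49 to 1.44, edgeR adjusted p 0.00721) and 0.82 against untreated cells (SE 0.22, 0.35 to 1.29, edgeR adjusted p 0.0157). Without IgA replicate 3 they rose to 1.19 and 1.05. The call against untreated cells was lost without IgA replicate 1 (0.56, edgeR adjusted p 0.0692), without untreated replicate 3 (0.73, edgeR adjusted p 0.0733) and when libraries were scaled by total counts alone (0.63, edgeR adjusted p 0.0763). The call against IgG held in all 9 fits that left out a library.

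**Figure D1:**
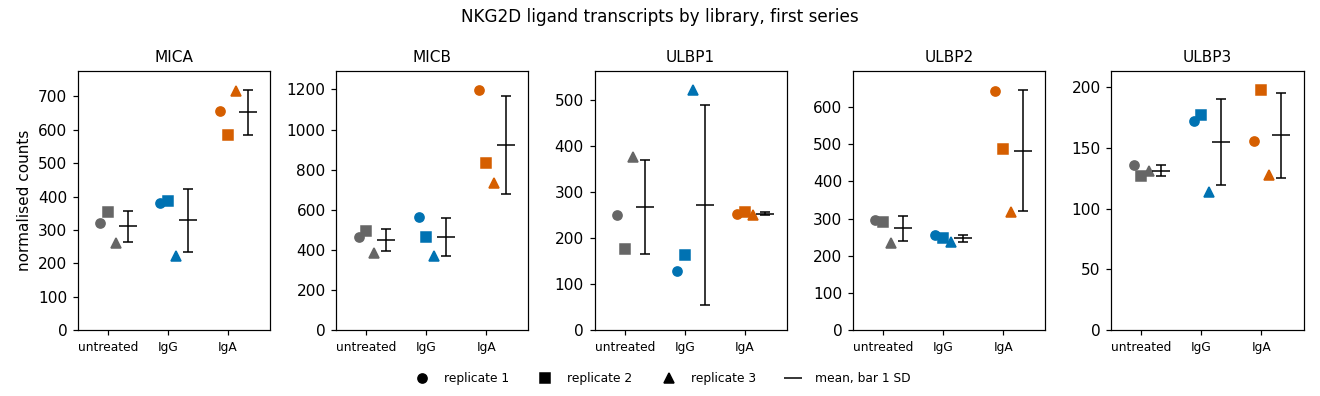
Normalised counts (vertical axis, linear, from 0) of the 5 ligands in each library of the first series, by group. Symbols mark the replicate number and bars the mean and 1 SD (n = 3). For MICA, MICB and ULBP2 the 3 IgA libraries lie above all others, whereas for ULBP1 the highest values are IgG replicate 3 (523) and untreated replicate 3 (377).

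ULBP3 had low and similar counts in all 3 groups. Its normalised counts were 156, 198 and 128 with IgA, 173, 178 and 114 with IgG, and 136, 127 and 131 untreated. The groups overlapped in each comparison. The log2 fold change of ULBP3 was 0.06 against IgG (interval -0.44 to 0.56, edgeR adjusted p 0.885) and 0.30 against untreated cells (-0.21 to 0.80, edgeR adjusted p 0.384). The intervals reach 0.56 and 0.80 on the log2 scale. Without IgA replicate 3 the values were 0.19 and 0.43, neither called. Whether the response of ULBP3 differed from that of MICA, MICB or ULBP2 was not tested.

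ULBP1 behaved unlike the other ligands in its spread. The 3 IgA libraries nearly coincided at 252, 257 and 251 normalised counts. The IgG libraries held 129, 164 and 523, and the untreated ones 251, 176 and 377. In both of these groups replicate 3 was above the other libraries, and all IgA libraries lay above IgG replicates 1 and 2. With all libraries the log2 fold change of ULBP1 was -0.09 against IgG (interval -1.01 to 0.82, edgeR adjusted p 0.896) and -0.08 against untreated cells (-0.996 to 0.83, edgeR adjusted p 0.911). Without IgG replicate 3 the value against IgG turned to 0.79 and was not called (edgeR adjusted p 0.0912), and without untreated replicate 3 the value against untreated cells turned to 0.25. Without IgA replicate 3 the values of ULBP1 were -0.086 and -0.077. The estimated biological coefficient of variation of ULBP1 in the first series was 35.9%, against a median of 17.2% in 1696 genes of similar level, of which 99.4% varied less. In the second series it was 11.8%, close to the median of 11.6%. For the other 4 ligands it ranged from 17.5% to 19.4% (first series) and from 6.86% to 9.11% (second series).

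The genes whose pattern came closest were picked by their values in these same libraries. Likeness was the root mean square difference in log2 CPM, each gene centred on the mean of its series, over 18 libraries and among 13346 genes. For ULBP1 the nearest were STC2, a secreted glycoprotein (0.22), PCK2, the mitochondrial phosphoenolpyruvate carboxykinase (0.22), and SNTB1, a syntrophin (0.25), where the median gene stood at 0.48. STC2 had 1405, 1675 and 3320 normalised counts in the IgG libraries and 1945, 1882 and 3160 in the untreated ones. PCK2 had 679, 737 and 1833 with IgG and 767, 685 and 1460 untreated. Both genes were highest in replicate 3 of both groups, a pattern that the choice by likeness to ULBP1 favours.

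The nearest genes of the other ligands lay closer in log2 units. For MICA they were COL5A2 (0.13), a fibrillar collagen chain, M1AP (0.13) and S100A16 (0.13), and for MICB they were COLGALT1 (0.13), which adds galactose to collagen, PLK2 (0.15) and CCND1 (0.15), which encodes cyclin D1. For ULBP2 they were SEC11C (0.15), a signal peptidase subunit, CDKN2B (0.16), a cyclin-dependent kinase inhibitor, and DNAJC6 (0.16). For ULBP3, whose own values varied least, they were WDR77 (0.12), ABCB10 (0.13) and GNA12 (0.14). The medians over all genes were 0.28 to 0.43 for these 4 ligands. The likeness was closer in the first series, where Pearson correlations of each ligand with its nearest genes were 0.86 to 0.97. In the second series they were 0.17 to 0.90.

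With BDNF IgA, in the second series, no ligand was called, beside 4.49% of the 18732 genes tested called higher and 3.18% lower. With TSPAN7 IgA, MICB alone was called higher, beside 4.46% of genes higher and 4.08% lower. Between both antibodies no ligand was called, where TSPAN7 IgA stood above BDNF IgA in 3.42% of genes and below it in 4.5%. Of the 5 ligands, 1 had an unadjusted p under 0.05 with BDNF IgA (MICB) and none between the antibodies, where 22.1% and 22.5% of all genes did, and DESeq2 also called 0 in both. Both antibodies were compared with the same 3 untreated libraries.

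MICB had 476, 495 and 395 normalised counts with BDNF IgA, 487, 483 and 433 with TSPAN7 IgA and 365, 395 and 378 untreated. The TSPAN7 IgA libraries all lay above the untreated ones, as was true of 14.4% of all genes, whereas the lowest BDNF IgA library fell just under the highest untreated one. With TSPAN7 IgA the log2 fold change of MICB was 0.30 (SE 0.09, interval 0.11 to 0.50, edgeR adjusted p 0.0495), and with BDNF IgA 0.26 (SE 0.09, 0.07 to 0.46, edgeR adjusted p 0.0921). The direct difference between the antibodies was 0.04 (interval -0.15 to 0.23). The TSPAN7 IgA call stood at the edge of the threshold. It held in 2 of 9 fits with a library left out, those without BDNF IgA replicate 2 or 3, and was lost without any TSPAN7 IgA or untreated library or BDNF IgA replicate 1 (adjusted p 0.0511 to 0.171) and with RLE scaling (0.0509). The BDNF IgA value passed without BDNF IgA replicate 3 (0.35, edgeR adjusted p 0.0304).

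MICA showed no such shift in the second series. It had 364, 389.6 and 325 normalised counts with BDNF IgA, 375, 411 and 324 with TSPAN7 IgA and 373, 377 and 399 untreated. On the log2 scale MICA differed by -0.09 with BDNF IgA (interval -0.30 to 0.11, edgeR adjusted p 0.646) and -0.05 with TSPAN7 IgA (-0.26 to 0.16, edgeR adjusted p 0.832). Each interval overlapped that of MICB with the same antibody (0.07 to 0.46 with BDNF IgA, 0.11 to 0.50 with TSPAN7 IgA). The difference between MICA and MICB was not tested.

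ULBP2 had 204, 197 and 186 normalised counts with BDNF IgA, 177, 191 and 208 with TSPAN7 IgA and 143, 200.3 and 167 untreated. Untreated replicate 2 was as high as the treated libraries, and the groups overlapped. On the log2 scale ULBP2 differed by 0.20 with BDNF IgA (interval -0.07 to 0.48, edgeR adjusted p 0.401) and 0.17 with TSPAN7 IgA (-0.10 to 0.45, edgeR adjusted p 0.491).

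ULBP1 was the least abundant ligand here, at 101, 107 and 89.3 normalised counts with BDNF IgA, 98.9, 74.8 and 117 with TSPAN7 IgA and 74.96, 80.9 and 97.5 untreated. The wide spread of the first series was not seen. Its log2 fold changes were 0.23 with BDNF IgA (interval -0.16 to 0.61) and 0.19 with TSPAN7 IgA (-0.19 to 0.58), and neither was called. ULBP3 had 155, 132 and 144 normalised counts with BDNF IgA, 173, 193 and 149 with TSPAN7 IgA and 179, 144 and 154 untreated. For ULBP3 the difference between the antibodies was the largest of any ligand, 0.26 higher with TSPAN7 IgA (interval -0.03 to 0.55, edgeR adjusted p 0.284), and was not called. Against untreated cells ULBP3 differed by -0.15 with BDNF IgA (-0.44 to 0.14) and by 0.11 with TSPAN7 IgA (-0.18 to 0.40).

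**Figure D2:**
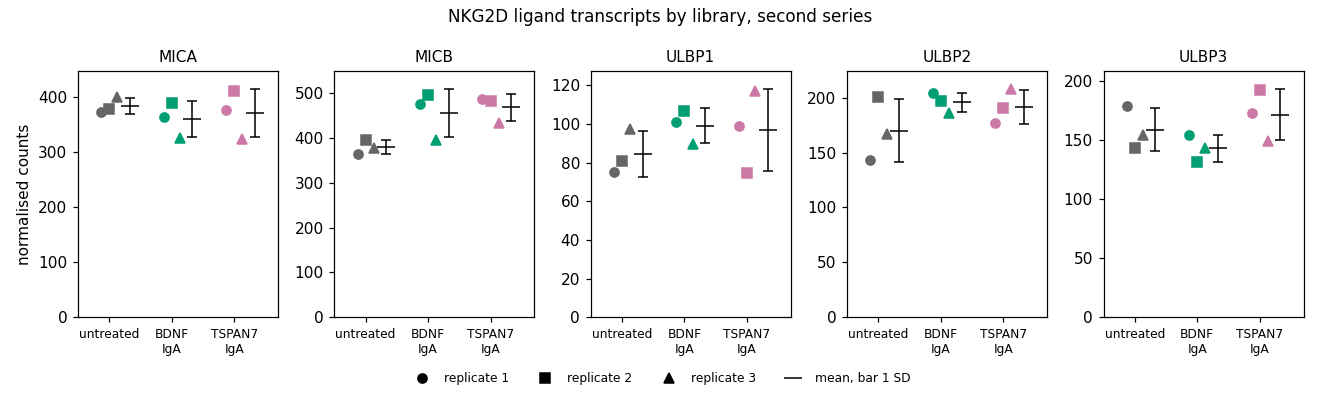
Normalised counts (vertical axis, linear, from 0) of the 5 ligands in each library of the second series, by group, with replicate symbols, means and 1 SD (n = 3). MICB is the single ligand whose TSPAN7 IgA libraries (433 to 487) all lie above the untreated ones (365 to 395), and the other ligands overlap between groups.

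The sizes of these changes can be set beside the rest of the transcriptome of each series. Against IgG, 14.2% of genes changed by more than MICA in either direction, 14.04% by more than MICB and 14.6% by more than ULBP2. Against untreated cells the shares were 12.3%, 12.8% and 18.9%. MICB with TSPAN7 IgA was exceeded by 19.4% of genes. With BDNF IgA, 23.2% to 58.4% of genes changed by more than each of the 5 ligands. The antibodies of the series were different and the series were separate experiments, so their fold changes are given side by side without a test of the difference.

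**Figure D3:**
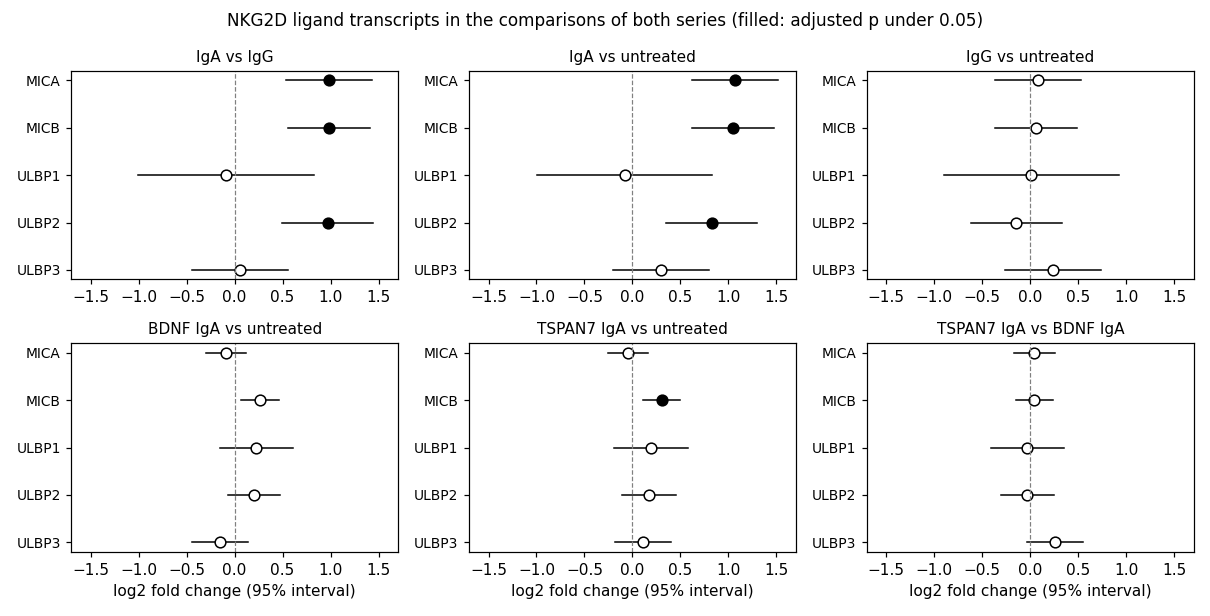
Log2 fold changes (horizontal axis) of the 5 ligands in the 6 comparisons, with 95% intervals from the edgeR fit of each series. Filled points passed an adjusted p of 0.05. MICA, MICB and ULBP2 stand between 0.82 and 1.07 in both IgA comparisons, and the intervals of ULBP1 are the widest in the first series.

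Per length, the ligands ranked in another order than by counts. In untreated cells of the first series, normalised counts per kilobase of annotated exon were 205 ± 25.1 (SD, n = 3) for ULBP2 and 160.0 ± 20.0 for MICB. ULBP1 (83.5 ± 31.7) and MICA (80.8 ± 12.1) followed and differed by less than their SDs, and ULBP3 was lowest at 42.2 ± 1.46. With IgA the levels were 361 ± 122 for ULBP2, 330 ± 87.0 for MICB, 169 ± 17.4 for MICA, 78.9 ± 0.933 for ULBP1 and 51.6 ± 11.3 for ULBP3. ULBP2 and MICB differed here by less than their SDs, and MICA stood above ULBP1. In untreated cells of the second series the levels were 136 ± 5.53 for MICB, 127 ± 21.6 for ULBP2, 99.5 ± 3.66 for MICA, 51.1 ± 5.88 for ULBP3 and 26.3 ± 3.64 for ULBP1, of which the first pair did not differ beyond their SDs. With BDNF IgA and TSPAN7 IgA the order was the same, from 163 ± 19.0 and 167 ± 10.8 for MICB down to 30.9 ± 2.78 and 30.2 ± 6.58 for ULBP1. All exons of a gene were counted as its length, which understates a ligand that uses a short transcript.

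The remaining NKG2D ligand genes RAET1E, RAET1G and RAET1L were barely transcribed. Raw counts of RAET1E were 1 to 41 per library (first series) and 16 to 36 (second series). Those of RAET1G were 0 to 18 and 3 to 11, and those of RAET1L 0 to 19 and 2 to 8. Of the 3 genes, 2 passed the filter in the IgA and IgG series, 1 passed it in the BDNF and TSPAN7 series, and none was called in any comparison. RAET1E differed by 1.67 on the log2 scale between IgA and IgG without being called (edgeR adjusted p 0.164). Its raw counts were 12, 18 and 41 in IgA replicates 1 to 3 and 15, 15 and 1 in IgG replicates 1 to 3. The difference thus rested mainly on replicate 3 of both groups, and it is given with all libraries only.

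Of 10 genes linked to the release of NKG2D ligands from the surface, which include the inhibitor TIMP3, 3 were called higher against IgG and none lower: FURIN, a proprotein convertase that activates metalloproteases (0.73, edgeR adjusted p 0.000879), PDIA6, a disulfide isomerase that opens MICA for cleavage (0.69, edgeR adjusted p 0.000446), and ADAM9, a metalloprotease (0.40, edgeR adjusted p 0.00641). Against untreated cells the same 3 genes and MMP14 were called higher, of which MMP14 rested on 34.0 against 11.2 normalised counts. With library size scaling the ADAM9 and MMP14 calls were lost, and without IgA replicate 3 all were kept. The median log2 fold change of the list was 0.14 against IgG, beside -0.01 for all genes, of which 12.6% were called higher and 11.6% lower. With BDNF IgA, 4 of the 10 were called higher, namely the sheddases ADAM10 (0.22, edgeR adjusted p 0.00261) and ADAM17 (0.22, edgeR adjusted p 0.0176), the gelatinase MMP2 (0.33, edgeR adjusted p 0.0173) and TIMP3 (0.25, edgeR adjusted p 0.0109), which inhibits metalloproteases. With TSPAN7 IgA, ADAM10 (0.21, edgeR adjusted p 0.00339) and ADAM9 (0.18, edgeR adjusted p 0.00768) were called higher. The shares of all genes called higher were 4.49% with BDNF IgA and 4.46% with TSPAN7 IgA. Between the antibodies, MMP2 (-0.45) and TIMP3 (-0.30) were lower with TSPAN7 IgA.

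Of 17 regulators linked to transcription or turnover of NKG2D ligands, 4 were called higher and 4 lower against IgG. NFKB1, a subunit of NF-kB, rose by 1.11 (edgeR adjusted p 3.80e-05) and STAT3 by 0.52 (edgeR adjusted p 0.00289), with smaller rises of SP1 (0.37) and CHEK1 (0.34). DICER1, the nuclease that matures microRNAs, fell by 0.82 (edgeR adjusted p 0.000637), with smaller falls of CHEK2 (-0.41), EZH2 (-0.37) and ATR (-0.29). Against untreated cells 4 were higher and 3 lower, without ATR. The members moved in both directions, and the median of the list was 0.06 against IgG, where 12.6% of all genes were called higher and 11.6% lower. CHEK1 and SP1 lost their calls in both comparisons without IgA replicate 3 and with library size scaling, STAT3 lost its call against IgG with that scaling, and CHEK2 lost its call against IgG without that library. NFKB1 and DICER1 passed in each of these fits. In the second series ATF4, a transcription factor of the integrated stress response, was called higher with both antibodies (0.15 and 0.18), DICER1 lower with BDNF IgA (-0.18), and EZH2 was higher (0.19) and XBP1 lower (-0.19) with TSPAN7 IgA relative to BDNF IgA.

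Of 8 heat shock factor target genes, which encode chaperones and their helpers, 5 were called higher and none lower in both IgA comparisons. The median log2 fold change was 0.53 against IgG. Among all genes, 12.6% were called higher against IgG and 12.9% against untreated cells. Normalised counts of HSPA1A, an inducible HSP70, were 5152, 2729 and 8737 in IgA replicates 1 to 3, 1398 to 1783 with IgG and 1379 to 1912 untreated. IgA replicate 3, the library rich in mitochondrial counts, was the highest in HSPA1A and, among the IgA libraries, the highest in MICA and the lowest in MICB and ULBP2. The log2 fold change against IgG was 1.75 for HSPA1A (edgeR adjusted p 0.00149), 2.24 for HSPA1B (edgeR adjusted p 0.00213), 0.98 for the cochaperone DNAJB1 (edgeR adjusted p 0.00204), 0.59 for HSP90AA1 and 0.47 for HSPH1. HSPA1A and HSPA1B are near-identical copies, so their separate counts are uncertain. HSP90AA1 and HSPH1 lost their calls with library size scaling, and without IgA replicate 3 all 5 calls stood and HSPB1 was added. With BDNF IgA, HSPB1 was higher (0.40) and HSPA8 (-0.31), HSPA1A (-0.26) and HSP90AA1 (-0.22) were lower. With TSPAN7 IgA, HSPB1 (0.37) and HSPA1B (0.30) were higher. Relative to BDNF IgA, 5 of the 8 were called higher with TSPAN7 IgA: BAG3, HSP90AA1, HSPA1A, HSPA1B and HSPH1. The median was then 0.20, beside -0.002 for all genes, of which 3.42% were called higher.

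Ligands of other NK cell receptors changed in several cases. Of 18 such genes 14 could be tested in the first series, and 4 were called higher and 1 lower in both IgA comparisons. Among all genes, 12.6% were called higher and 11.6% lower against IgG, and 12.9% and 12.1% against untreated cells. ICAM1, the adhesion partner of the integrin LFA-1, rose by 2.63 on the log2 scale against IgG (edgeR adjusted p 1.83e-06), from 452, 474 and 579.7 normalised counts with IgG to 4023, 2517 and 2785 with IgA. CD70, the ligand of CD27, rose by 1.06 (edgeR adjusted p 0.00833), HLA-E, which engages NKG2A and NKG2C, by 0.48 (edgeR adjusted p 0.0110), and PVR, the ligand of DNAM-1, by 0.31 (edgeR adjusted p 0.0345). PVRL3, which encodes nectin-3, was lower (-0.36, edgeR adjusted p 0.0221). The HLA-E and PVR calls were lost with library size scaling, and the PVR call against IgG also without IgA replicate 3. In the second series 15 were tested. With BDNF IgA 5 were called higher, among them CEACAM1 and CDH1, which is also an epithelial marker. With TSPAN7 IgA 2 were called higher and 1, PVRL3, lower. The shares of all genes were 4.49% higher with BDNF IgA, and 4.46% higher and 4.08% lower with TSPAN7 IgA. ICAM1 was called higher with both (0.34 and 0.37), as was CD70 (0.20 and 0.25), whereas HLA-E was called with BDNF IgA alone against untreated cells (0.34) and was lower with TSPAN7 IgA relative to BDNF IgA (-0.19). CDH1 was also called lower with TSPAN7 IgA relative to BDNF IgA.

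Some cell type markers moved with the groups as well. The 3 fibroblast markers summed to 21.8 to 29.8 CPM with IgA, 19.0 to 20.8 with IgG and 18.8 to 25.3 untreated, nearly all of it COL1A1, which was called higher against IgG (0.64, edgeR adjusted p 0.0215), with COL3A1 at 0 to 7 and DCN at 0 to 16 counts. Of the 8 epithelial and ovarian markers, PAX8 and KRT7 were called higher and WT1 and KRT8 lower with IgA in both comparisons. WT1 fell from 4472 ± 324 normalised counts with IgG to 1976 ± 858 with IgA (SD, n = 3), with 2028, 2807 and 1093 in IgA replicates 1 to 3. Without IgA replicate 3 the calls of PAX8 in both comparisons and of COL1A1 against IgG were lost, and those of KRT7, WT1 and KRT8 were kept. In the second series BDNF IgA cells had CDH1, KRT7 and PAX8 called higher, and TSPAN7 IgA cells had KRT7 higher and MUC16 and WT1 lower. Relative to BDNF IgA, TSPAN7 IgA cells had KRT7 called higher and CDH1, MUC16 and WT1 lower. PTPRC, the leukocyte marker CD45, was called higher with TSPAN7 IgA (1.39, edgeR adjusted p 0.0487) at 19.7 against 7.40 normalised counts, and no other NK, T cell or macrophage marker was called in any comparison. The part of these differences in the ligand results was not tested.

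**Figure D4:**
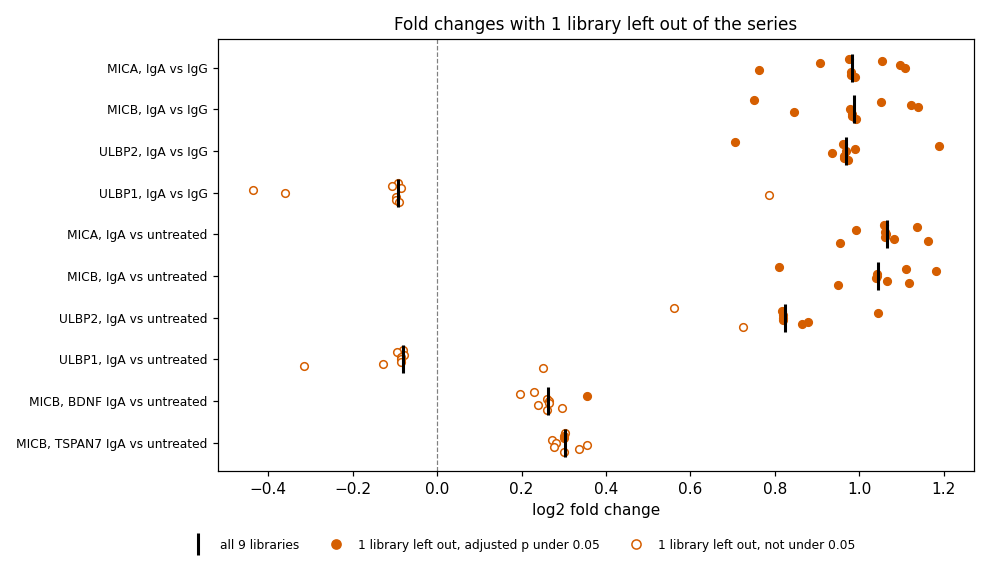
Log2 fold changes (horizontal axis) of selected ligands and comparisons with all 9 libraries of a series (bars) and with each library left out in turn (points, filled where the adjusted p was under 0.05). MICA and MICB stay between 0.75 and 1.18 in the IgA comparisons, whereas ULBP1 against IgG ranges from -0.44 to 0.79.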

How the data were processed

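RNA of 18 OVCAR3 libraries was read as paired 75-base ends. The authors removed adaptors (cutadapt), placed reads on GRCh37 (STAR) and counted the uniquely placed ones per Gencode gene (featureCounts), and the deposited values are raw counts. The submitters' processing notes also name HTSeq. The deposited counts of the second series had 57820 rows, and 2055 exact repeats of another row were dropped. The number of columns left unused was 0. Titles gave the groups and replicate numbers. Libraries of 1 group were compared pairwise and none was a copy of another (chi-square divided by its degrees of freedom, 3.91 at the least and 232 at the most).

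Both series were fitted separately, each with its 9 libraries, in edgeR 4.0.16 under R 4.3.3 with TMM scaling, filterByExpr, group as the single term and a two-sided quasi-likelihood F test. Benjamini-Hochberg adjustment ran over 18012 genes (first series) or 18732 genes (second series). SEs were derived from the fold change and its F value, and intervals are at 95%. The fit was tested on simulated data in which 200 genes were shifted by 1.5 on the log2 scale. For IgA against IgG, over 17569 genes, 73% were recovered (95.9% of those with a mean of 50 or more counts) and 5.81% of calls were false. For BDNF IgA against untreated cells, over 18386 genes, 88% were recovered and 6.38% of calls were false. The shift of 1.5 exceeded every ligand change, so recovery of smaller changes was not tested. Fewer genes were shifted than were called in the IgA comparisons, and no library was simulated to stand apart as IgA replicate 3 did. Reads carried no molecular identifiers, so precision was judged by the replicates and not by counting error.

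The members, gene lists, motifs and tests were chosen with earlier results of these data known. All 5 ligands are reported in every comparison. Called list genes are named, as are the 3 genes most like each ligand among those with a mean of 50 or more normalised counts (log2 CPM, prior count 2). Alternatives were DESeq2 1.42.0, other scalings and filters, no mitochondrial or ribosomal RNA genes, a replicate block, only the 6 libraries compared, a threshold of 0.01 and each library left out in turn. Promoter sequences are from RefSeq, and gene positions from GENCODE v44lift37 on GRCh37.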

Additional observations from a re-analysis of the deposited data

How the results depend on the processing

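Over 540 alternatives of the 30 ligand results, 502 kept direction and side of the threshold, 24 reversed, 13 lost and 1 gained a call. MICA and MICB stayed called in both IgA comparisons under all alternatives, from 0.74 to 1.18, and so did ULBP2 against IgG, from 0.71 to 1.19. The number of called ligands with 1 library left out was 3 to 3 for IgA against IgG, 2 to 3 for IgA against untreated, 0 to 0 for IgG against untreated, 0 to 1 for BDNF IgA, 0 to 1 for TSPAN7 IgA and 0 to 0 between the antibodies. For TSPAN7 IgA it was also 0 with RLE scaling and at an adjusted p under 0.01, where ULBP2 against untreated cells was not called either.

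All reversals were of uncalled values. With library size scaling ULBP3 against IgG became -0.16. With 1 library left out, ULBP3 against IgG ranged from -0.13 to 0.19, ULBP1 from -0.44 to 0.79 against IgG and from -0.32 to 0.25 against untreated cells. For IgG against untreated cells the ranges were -0.045 to 0.30 for MICA, -0.10 to 0.20 for MICB and -0.87 to 0.35 for ULBP1. MICA with TSPAN7 IgA ranged from -0.13 to 0.038. Between the antibodies the ranges were -0.038 to 0.13 for MICA, -0.053 to 0.11 for MICB, -0.19 to 0.12 for ULBP1 and -0.091 to 0.029 for ULBP2. The cause was not tested beyond the construction of each alternative.

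Correlation by replicate number differed between groups. Deviations of same-numbered libraries correlated at -0.0686 to 0.247 among IgA, IgG and their untreated cells. In the second series they correlated at -0.0168 to 0.0887. Between IgG and untreated cells the values were 0.0560, 0.0625 and 0.247, against -0.210 to 0.143 between different numbers. Whether the libraries of those groups were paired was not tested. With a replicate block ULBP1 turned to 0.16 against IgG, 0.041 against untreated cells and -0.12 for IgG against untreated, and no ligand's call changed.

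Library size scaling moved the median of all genes by -0.23 for IgA against IgG and -0.21 for IgA against untreated cells. MICA, MICB and ULBP2 were then at 0.74, 0.76 and 0.75 against IgG. Depth limits ULBP1 and ULBP3 most, with as few as 71 and 81 raw counts in a library.

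Background counts over all genes also moved. Leaving out 1 library took the genes called from 4360 to between 2566 and 5286 for IgA against IgG. For IgA against untreated cells 4503 became 2601 to 5229. For BDNF IgA 1437 became 734 to 2798, and for TSPAN7 IgA 1600 became 757 to 2304. Between the antibodies 1484 became 482 to 3276. At 0.01 the genes called were, in the same order, 2041, 2130, 638, 771 and 578.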
